A study of Mus musculus with 9 samples.

Results

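The 6 genes described here were grouped around the plasminogen activator system, the set of secreted proteases, inhibitors and receptors that controls breakdown of fibrin and matrix outside the cell. They are *Serpine2* and *Serpinf1*, which encode secreted serpins, *Plat* and *Plau*, which encode the plasminogen activators, and *Plaur* and *F2r*, which encode receptors. *Serpinf1*, whose product inhibits no protease, and *F2r*, a thrombin receptor gene, were set beside that system and are not core parts of it. The 6 genes were among the 47729 genes in the RSEM tables. *Serpine2* was picked for its rise in *Le-Cre* lenses in these same pools, so its values are given as a description with no test. The other 5 genes were chosen by function, with earlier results of these data known.

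RNA-Seq measured polyadenylated RNA in whole lenses of newborn mice of 3 groups on the *FVB/N* background. These were wild type *FVB/N* mice and mice that were hemizygous for *P0-3.9GFPCre* or for *Le-Cre*. Each group had 3 pools, and each pool held 6 lenses from 3 mice. Both transgenes express CRE and GFP from a fragment of the mouse *Pax6* P0 promoter, which is active in the lens placode and the neighbouring surface ectoderm and later in the lens epithelium. *P0-3.9GFPCre* makes CRE and GFP as 1 fused protein, while *Le-Cre* makes a separate nuclear CRE. No floxed allele is named for any group. The 3 comparisons ask whether either transgene alone, in hemizygous lenses, goes with a difference in these RNAs, and they share pools, so they are not independent of each other.

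Plasminogen activators cut plasminogen into plasmin, a broad protease that degrades fibrin and activates other matrix proteases. *Plat* encodes tissue plasminogen activator, and *Plau* encodes urokinase, which works at the cell surface when held by its receptor, the product of *Plaur*. Serpins inhibit such proteases by offering a bait loop that traps the enzyme. *Serpine2* encodes protease nexin-1, which inhibits thrombin, urokinase and tissue plasminogen activator and binds heparan sulfate. *Serpinf1* encodes pigment epithelium-derived factor, a serpin without protease inhibitor activity that restrains vessel growth. *F2r* encodes PAR1, the receptor that thrombin switches on by cutting it. The lens has no blood vessels of its own, but a transient vessel net surrounds it in the newborn mouse.

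On GRCm38, *Serpine2* lies on the minus strand of chromosome 1 (chr1:79794197-79861180) and *Serpinf1* on the minus strand of chromosome 11 (chr11:75409769-75422701). *Plat* lies on chromosome 8 (chr8:22757727-22782844) and *Plau* on chromosome 14 (chr14:20836660-20843385), both on the plus strand. *Plaur* is on the plus strand of chromosome 7 (chr7:24462484-24475968) and *F2r* on the minus strand of chromosome 13 (chr13:95601803-95618487). No exon of the 6 genes overlapped an exon of another gene. Of the stretches of 51 bases in their transcripts, 0.0607% of those of *Serpine2* and 0% of those of the other 5 genes occurred in another gene, so few reads of these genes can be shared.

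The promoters of the 2 serpins are shown because, among the 5 of the 6 genes that passed the filter on low counts, they had the widest differences between *Le-Cre* and *FVB/N*, in opposite directions. The sequences are the 250 bases before the RefSeq start on GRCm38.p6, 5′ to 3′ on the strand of the gene, at chr1:79858666-79858915 for *Serpine2* and chr11:75422624-75422873 for *Serpinf1*. The *Serpine2* stretch lies within the gene span given above, and the *Serpinf1* stretch lies partly within its span. The annotation behind those spans thus begins both genes further upstream than these RefSeq starts, and stretches before its starts were not searched. Capitals mark the GC box GGGCGG, the letters bound by Sp1 family factors, searched on both strands with overlaps counted.

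Serpine2: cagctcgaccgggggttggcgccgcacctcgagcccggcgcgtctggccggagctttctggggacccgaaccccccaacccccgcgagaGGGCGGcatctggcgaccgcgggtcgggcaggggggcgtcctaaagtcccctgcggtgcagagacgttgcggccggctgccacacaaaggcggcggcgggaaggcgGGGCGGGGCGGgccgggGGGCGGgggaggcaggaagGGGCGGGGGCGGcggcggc

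Serpinf1: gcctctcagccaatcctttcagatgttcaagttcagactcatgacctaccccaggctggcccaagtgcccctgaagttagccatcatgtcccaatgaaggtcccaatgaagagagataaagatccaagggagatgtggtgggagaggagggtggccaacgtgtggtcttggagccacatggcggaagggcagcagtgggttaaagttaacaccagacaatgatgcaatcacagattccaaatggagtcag

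The *Serpine2* stretch held 6 GC boxes and the *Serpinf1* stretch held 0. Over the RefSeq windows of 250 bases before to 50 after the start, 35.7% of 32851 windows held a GC box. The *Serpine2* window was 77.7% G or C, above 97.9% of windows, the *Serpinf1* window was 50.7% G or C, and the median window was 52.7%. The AP-1 site TGACTCA, the TATA box TATAAA and a p53 half-site were searched in the same way and were found in 5.2%, 13.6% and 8.36% of all windows, and in neither of these 2. The *Plaur* window held 3 GC boxes and 1 AP-1 site, and the *F2r* window held 1 of each. *Plat* and *Plau* were not matched. These matches describe letters only.

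The libraries held between 20670968 and 28098059 expected counts, RSEM's estimates of reads per gene. Markers of lens fibres summed to 171000 to 194000 TPM, transcripts of a gene scaled to a fixed total per library and to length, and markers of lens epithelium to 173 to 201 TPM in the 9 pools, so the tissue carried the markers of its label. The 5 epithelium markers summed to 186 to 191 TPM in *FVB/N*, 186 to 201 in *P0-3.9GFPCre* and 173 to 186 in *Le-Cre*, with the highest *Le-Cre* sum below the lowest *FVB/N* sum by a margin lost in rounding and none of the 5 past the cutoff in edgeR. The part of this shift in the *Serpine2* and *Serpinf1* differences between these groups was not tested. Of the markers of cornea and surface epithelium, *Krt12* and *Krt14* were at 0 in every pool. Fewer cells of a type and less RNA per cell cannot be told apart in such whole-lens RNA. Y-linked genes took 126 to 194 CPM (reads scaled to library size) in *FVB/N*, 1.66 to 135 in *P0-3.9GFPCre* and 0.633 to 71.9 in *Le-Cre*. Every *Le-Cre* pool was below every *FVB/N* pool, so the share of RNA from males cannot be fully told apart from the line there.

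TPM is scaled for transcript length and so allows genes to be compared with each other. By mean TPM the order was *F2r*, *Serpinf1*, *Serpine2*, *Plat*, *Plau* and *Plaur* in each of the 3 groups. *F2r* was at 24.9 ± 2.09 TPM (SD, n = 3) in *FVB/N*, and *Plaur* was at the other end with 0 to 0.25 TPM in the 9 pools. In *FVB/N*, the pools of *Serpine2* and *Plat* overlapped, as did those of *Plau* and *Plaur*. In *P0-3.9GFPCre*, *Serpine2* and *Plat* again overlapped, and the other neighbours in the order did not. In *Le-Cre*, *Serpine2* stood clear of *Plat* and overlapped *Serpinf1* instead.

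**Figure D1:**
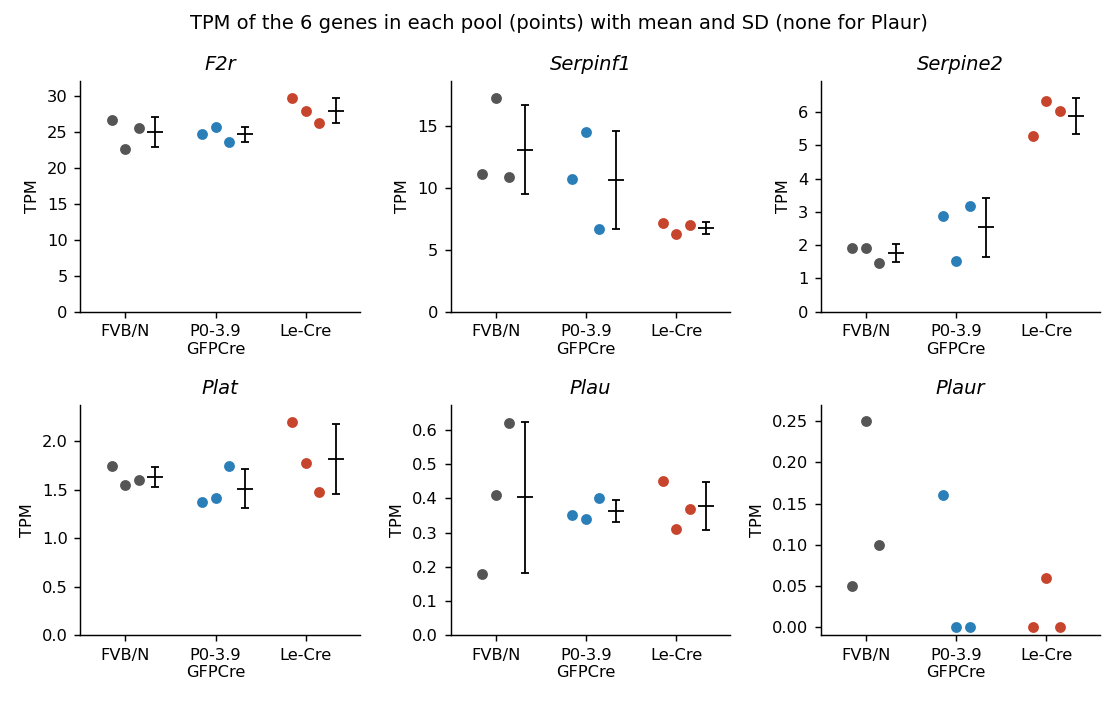
TPM of the 6 genes on separate linear axes, with 1 point per pool and, to the right of each group, the mean and SD of its 3 pools (none is drawn for *Plaur*). *Serpine2* stood at 5.29 to 6.33 TPM in *Le-Cre* against 1.45 to 1.93 in *FVB/N*, *Serpinf1* was lower in every *Le-Cre* pool than in any *FVB/N* pool, and the other 4 genes overlapped between these groups.

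*Serpine2* was higher in *Le-Cre* lenses than in those of the other groups. Its TPM was 1.91, 1.93 and 1.45 in the *FVB/N* pools, 2.88, 1.54 and 3.18 in the *P0-3.9GFPCre* pools, and 5.29, 6.33 and 6.04 in the *Le-Cre* pools. Every *Le-Cre* pool was above every pool of the other groups, while the *P0-3.9GFPCre* pools overlapped those of *FVB/N*. The estimated reads behind these values were 89.4 to 106 in *FVB/N*, 81 to 143 in *P0-3.9GFPCre* and 218 to 272 in *Le-Cre*.

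CPM, which has no length term, gave a smaller difference than TPM. *Serpine2* was at 3.98 ± 0.329 CPM in *FVB/N*, 4.98 ± 1.29 in *P0-3.9GFPCre* and 9.96 ± 0.34 in *Le-Cre* (SD, n = 3 each). The *Le-Cre* mean was 2.5-fold the *FVB/N* mean in CPM and 3.34-fold in TPM. The log2 fold changes fitted by edgeR from the counts were 1.32 for *Le-Cre* against *FVB/N*, 0.32 for *P0-3.9GFPCre* against *FVB/N* and 0.997 for *Le-Cre* against *P0-3.9GFPCre*. With a covariate for Y-linked RNA the first of these was 1.14, and leaving out any 1 pool gave 1.26 to 1.38.

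The gap between CPM and TPM came with a shift in the transcript length that RSEM assigned to the gene. RSEM's output lists 6 *Serpine2* transcripts. In GENCODE M21 these have 696 to 3393 bases, and 3 of them are protein coding and 3 have a retained intron. RSEM's own annotation release is not known and its lengths may differ from these. The mean length weighted by RSEM's estimates was 2277 to 2599 bases in *FVB/N*, 1859 to 2822 in *P0-3.9GFPCre* and 1724 to 1996 in *Le-Cre*. The *Le-Cre* lengths were all below those of *FVB/N*. Shares of single transcripts were not analysed here.

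The balance of *Serpine2* RNA to that of its target proteases followed the same order. The TPM of *Serpine2* divided by the summed TPM of *Plat* and *Plau* was 0.99, 0.985 and 0.653 in *FVB/N*, 1.67, 0.875 and 1.49 in *P0-3.9GFPCre*, and 1.996, 3.03 and 3.27 in *Le-Cre*. The means were 0.876 ± 0.193, 1.35 ± 0.418 and 2.76 ± 0.675 (SD, n = 3 each), and all *Le-Cre* pools were above all others. Against *Serpinf1*, the ratio was 0.139 ± 0.0302 in *FVB/N*, 0.284 ± 0.187 in *P0-3.9GFPCre* and 0.871 ± 0.137 in *Le-Cre*. RSEM's transcript lengths enter both ratios. From *FVB/N* to *Le-Cre* the mean length went from 2439 to 1874 bases for *Serpine2* and from 928 to 1087 for *Serpinf1*, and both shifts widen the TPM difference. In CPM, the means of *Serpine2* and *Serpinf1* were 3.98 and 11.0 in *FVB/N*, 4.98 and 7.75 in *P0-3.9GFPCre*, and 9.96 and 6.55 in *Le-Cre*. Because *Serpine2* was picked for its rise, these ratios are a description too.

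**Figure D2:**
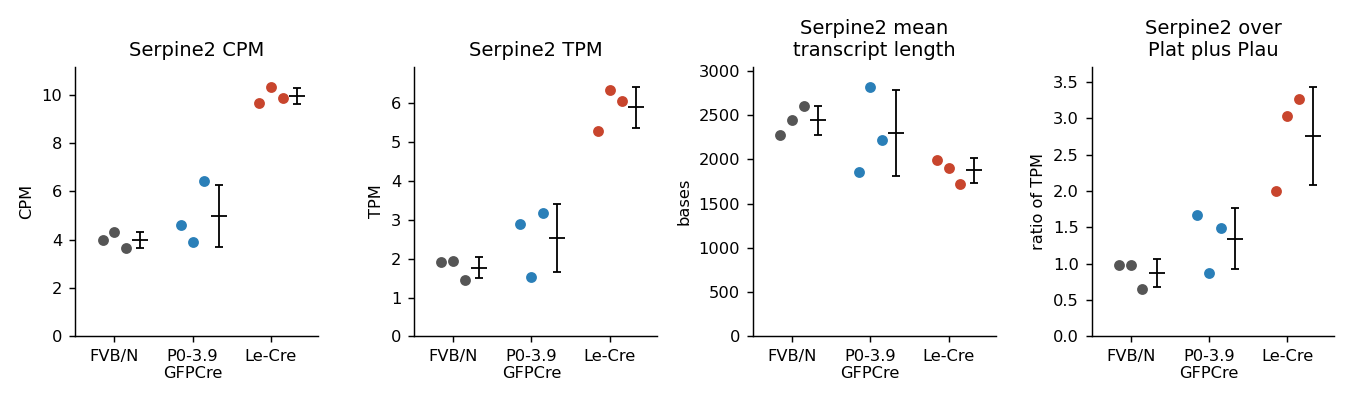
*Serpine2* in each pool as CPM, TPM, mean transcript length in bases and the ratio of its TPM to that of *Plat* plus *Plau*, on linear axes from 0, with the mean and SD of the 3 pools of each group. The *Le-Cre* pools stood above all others in CPM, TPM and the ratio and below all *FVB/N* pools in length.

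Among the other 5 genes, 0 of the 4 tested passed the cutoff in any comparison, which asked for 1.5-fold or more and an adjusted p no higher than 0.05. Over all genes tested by edgeR's quasi-likelihood test, 10 of 15557 passed in *Le-Cre* against *FVB/N* (0.0643%), 0 passed in *P0-3.9GFPCre* against *FVB/N* (0%) and 0 passed in *Le-Cre* against *P0-3.9GFPCre* (0%). At an unadjusted p under 0.05 by edgeR, the counts over all genes were 1236, 1060 and 1226, and DESeq2 without a prior called 54, 11 and 39. At that unadjusted level, 1 of the 4 genes, *Serpinf1*, stood out in *Le-Cre* against *FVB/N*, 0 in *P0-3.9GFPCre* against *FVB/N*, and 1, *F2r*, in *Le-Cre* against *P0-3.9GFPCre*. Pools did not overlap in CPM for 13.5% of all tested genes in the first comparison, 12% in the second and 14.1% in the third.

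*Serpinf1* had the widest difference of the 4 tested genes other than *Serpine2*, and was lower in *Le-Cre*. Its TPM was 11.2, 17.3 and 10.9 in *FVB/N*, 10.7, 14.5 and 6.65 in *P0-3.9GFPCre*, and 7.17, 6.26 and 6.98 in *Le-Cre*. All 3 *Le-Cre* pools were below all 3 *FVB/N* pools, and *P0-3.9GFPCre* overlapped both groups. In *Le-Cre* against *FVB/N* the log2 fold change was -0.74 (SE 0.232, 95% interval -1.25 to -0.23), or 1.67-fold lower. By edgeR the unadjusted p was 0.00842 and the adjusted p 0.438. This missed the cutoff, and the adjusted p ranged from 0.0211 to 0.965 over the alternatives. The lowest of these came without a filter on low counts, which called the gene.

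In *P0-3.9GFPCre* against *FVB/N*, *Serpinf1* had a log2 fold change of -0.50 (SE 0.231, 95% interval -1.01 to 0.01, adjusted p = 0.722 by edgeR). In *Le-Cre* against *P0-3.9GFPCre* it was -0.24 (SE 0.235, adjusted p = 0.851 by edgeR), and 0.03 without the second *P0-3.9GFPCre* pool. In TPM, the *Le-Cre* mean was 1.93-fold below that of *FVB/N*, against 1.68-fold in CPM. RSEM's mean length for the gene, which has 8 listed transcripts, was 916 to 939 bases in *FVB/N*, 833 to 918 in *P0-3.9GFPCre* and 1008 to 1176 in *Le-Cre*.

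Pigment epithelium, after which the *Serpinf1* protein is named, and fibroblasts lie near the lens. The 5 markers of pigment epithelium and ciliary body summed to 7.62 to 11.4 TPM in *FVB/N*, 6.89 to 9.27 in *P0-3.9GFPCre* and 6.84 to 9.32 in *Le-Cre*, with 3 of the 5 passing the filter and *Rpe65* and *Best1* below it. The 8 markers of pericytes and fibroblasts summed to 38.9 to 40.4 TPM in *FVB/N*, 34.1 to 37.6 in *P0-3.9GFPCre* and 30.6 to 36.7 in *Le-Cre*, so both transgenic groups were below *FVB/N*, with 6 of the 8 passing the filter and *Dcn* and *Lum* below it. None of these markers passed the cutoff in edgeR, and their part in the *Serpinf1* difference was not tested. With a covariate for Y-linked RNA, the *Serpinf1* difference between *Le-Cre* and *FVB/N* was -0.41 on the log2 scale.

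The RNA of the activators was low and did not separate the groups. *Plat* stood at 1.75, 1.55 and 1.60 TPM in *FVB/N*, 1.37, 1.42 and 1.74 in *P0-3.9GFPCre*, and 2.20, 1.78 and 1.48 in *Le-Cre*, and all groups overlapped. Its log2 fold change was 0.12 in *Le-Cre* against *FVB/N* (SE 0.192, 95% interval -0.30 to 0.54, adjusted p = 0.929 by edgeR) and -0.18 in *P0-3.9GFPCre* against *FVB/N* (95% interval -0.61 to 0.25, adjusted p = 0.887 by edgeR). These intervals leave room for differences of up to 0.54 on the log2 scale in *Le-Cre*, and the sign in *Le-Cre* turned to -0.05 without its first pool.

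*Plau* was below *Plat* in every pool, at 0.18, 0.41 and 0.62 TPM in *FVB/N*, 0.35, 0.34 and 0.40 in *P0-3.9GFPCre*, and 0.45, 0.31 and 0.37 in *Le-Cre*. The 3 *FVB/N* pools spanned the values of all other pools. Between 10.1 and 34.6 estimated reads per pool lay behind these values, and the interval of the difference between *Le-Cre* and *FVB/N* ran from -1.21 to 0.91 on the log2 scale around -0.15 (adjusted p = 0.969 by edgeR). Without the third *FVB/N* pool that difference was 0.38. That interval reflects the spread between the pools.

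*Plaur*, the urokinase receptor, was at the edge of detection. It had 1, 3 and 2 estimated reads in the *FVB/N* pools, 5, 0 and 0 in the *P0-3.9GFPCre* pools and 0, 2 and 0 in the *Le-Cre* pools. The gene did not pass the filter on low counts and was not tested. A count of 0 allowed up to 0.107 to 0.145 CPM, depending on the pool, for counting error only.

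*F2r* was the most abundant of the 6 genes by TPM, with 26.7, 22.6 and 25.5 TPM in *FVB/N*, 24.7, 25.7 and 23.5 in *P0-3.9GFPCre*, and 29.7, 27.9 and 26.3 in *Le-Cre*. *Le-Cre* overlapped *FVB/N*, and in both CPM and TPM all its pools were above those of *P0-3.9GFPCre*. The log2 fold change was 0.12 in *Le-Cre* against *FVB/N* (95% interval -0.06 to 0.31, adjusted p = 0.779 by edgeR) and -0.09 in *P0-3.9GFPCre* against *FVB/N* (95% interval -0.27 to 0.10, adjusted p = 0.873 by edgeR). In *Le-Cre* against *P0-3.9GFPCre* it was 0.21 (SE 0.084, 95% interval 0.03 to 0.40, adjusted p = 0.553 by edgeR). With 1580 to 2552 estimated reads per pool, this gene had the narrowest intervals of the 4 tested genes other than *Serpine2*.

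The wider system was described through 6 lists with 61 genes besides *Serpine2*. Of these, 44 were tested, 4 (*Hgf*, *Mmp3*, *Serpinb2* and *Serpina5*) were at 0 in every pool, and 0 passed the cutoff in any of the 3 comparisons by edgeR. The counts at an unadjusted p under 0.05 by edgeR were 8, 0 and 4 of the 44. Over all 15557 tested genes they were 1236, 1060 and 1226. The share was thus larger in the lists than over all genes in the first comparison, smaller in the second and slightly larger in the third. No set test was run. In *Le-Cre* against *FVB/N*, 3 of the 8 were higher (*S100a10*, *Anxa2* and *Timp3*) and 5 lower (*Serpinf1*, *Lrp1*, *Hspg2*, *Sdc4* and *Gpc1*). Of the 44 genes, 21 had a positive log2 fold change there, with a median of -0.005 beside -0.004 over all tested genes. In CPM, 4 of the 44 had all *Le-Cre* pools above all *FVB/N* pools and 5 had them all below. Over all tested genes, the pools did not overlap for 13.5%. DESeq2 without a prior called 1 of the 44 in *Le-Cre* against *FVB/N*, *S100a10*.

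**Figure D3:**
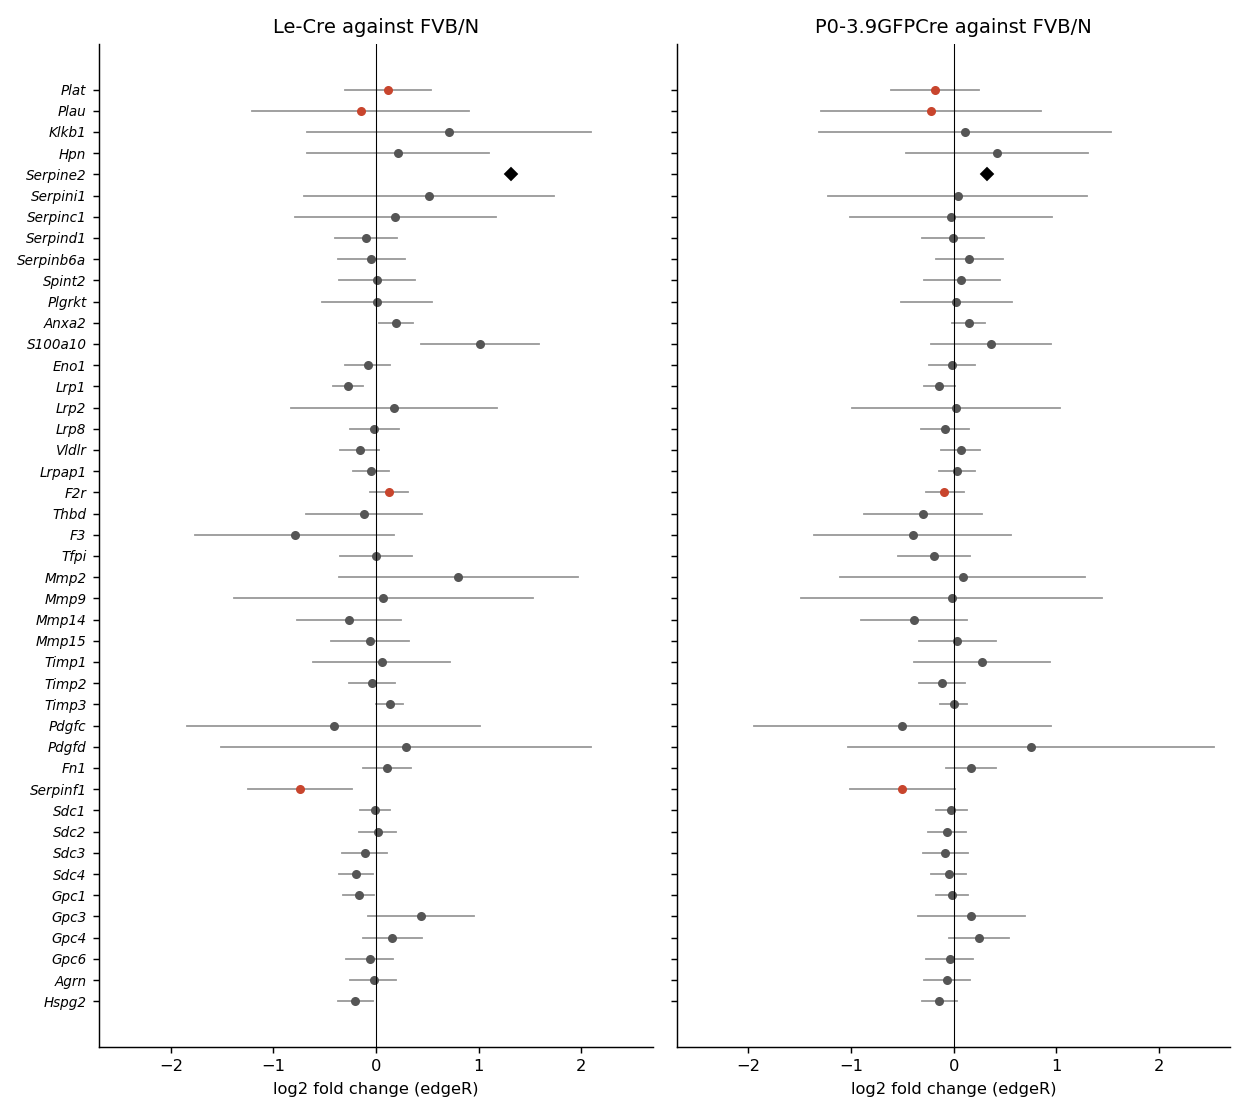
Log2 fold changes from edgeR for tested genes of the 6 lists (1 is not shown) in each transgenic line against *FVB/N*, with 95% intervals as bars. The black diamond is *Serpine2*, drawn without an interval as it was picked for its rise, at 1.32 in *Le-Cre* and 0.32 in *P0-3.9GFPCre*, the red points are *Plat*, *Plau*, *F2r* and *Serpinf1*, and most other genes lie near 0.

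The protease list held 8 genes, 4 of them tested. *Plg*, which encodes plasminogen itself, was at 0 to 0.06 TPM, and *F2*, which encodes prothrombin, at 0 to 0.12 TPM, so RNA for the proteins that *Plat* and *F2r* act with was at or near 0 in these lenses. Besides *Plat* and *Plau*, the tested genes were *Hpn*, a membrane serine protease at 1.04 to 2.81 TPM, and *Klkb1*, plasma kallikrein, at 0.11 to 0.40 TPM. The smallest p in *Le-Cre* against *FVB/N* was that of *Klkb1* (log2 fold change 0.72, adjusted p = 0.836 by edgeR), which shares 91.7% of its 51-base stretches with a second entry of the same symbol and is uncertain for that reason. *Hpn* had the smallest p in *P0-3.9GFPCre* against *FVB/N* (0.42, adjusted p = 0.873 by edgeR).

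Of 11 other inhibitors of these proteases, 6 were tested and 0 passed. The 3 genes of the list with the most TPM were *Serpinb6a* (10.2 on average), *Serpind1*, heparin cofactor II (5.12), and *Spint2*, a Kunitz inhibitor (4.90). Their log2 fold changes lay between -0.20 and 0.15 in the 3 comparisons.

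The list of plasminogen and clearance receptors held the genes nearest to the cutoff. *S100a10* encodes p11, which joins annexin A2 in a surface complex that binds plasminogen and tissue plasminogen activator. It stood at 13.2, 8.78 and 5.89 TPM in *FVB/N*, 9.77, 8.09 and 16.0 in *P0-3.9GFPCre*, and 18.6, 16.7 and 19.9 in *Le-Cre*. All *Le-Cre* pools were above all other pools, but in CPM the second *Le-Cre* pool barely passed the third *P0-3.9GFPCre* pool (8.503 against 8.484). Pools did not overlap in CPM, in either direction, for 13.5% of all tested genes against *FVB/N* and 14.1% against *P0-3.9GFPCre*. The log2 fold change was 1.02 in *Le-Cre* against *FVB/N* (SE 0.261, 95% interval 0.44 to 1.59, adjusted p = 0.306 by edgeR), 0.37 in *P0-3.9GFPCre* against *FVB/N* (adjusted p = 0.833 by edgeR) and 0.65 in *Le-Cre* against *P0-3.9GFPCre* (adjusted p = 0.555 by edgeR). With a covariate for Y-linked RNA, the first of these was 0.59.

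Its partner *Anxa2* was abundant, at 173 ± 3.48 TPM in *FVB/N*, 196 ± 20.3 in *P0-3.9GFPCre* and 199 ± 1.70 in *Le-Cre* (SD, n = 3 each). In *Le-Cre* against *FVB/N* the log2 fold change was 0.19 (95% interval 0.03 to 0.36, adjusted p = 0.576 by edgeR), and 0.03 with a covariate for Y-linked RNA. It was 0.15 in *P0-3.9GFPCre* against *FVB/N* (adjusted p = 0.761 by edgeR) and 0.04 in *Le-Cre* against *P0-3.9GFPCre* (adjusted p = 0.932 by edgeR). The exons of *Anxa2* overlap those of an antisense gene. *Lrp1*, the receptor that clears complexes of serpins with their proteases, was at 21.8, 21.3 and 22.6 TPM in *FVB/N* against 19.7, 18.7 and 18.4 in the *Le-Cre* pools, which were all lower. The log2 fold change was -0.28 (SE 0.067, 95% interval -0.42 to -0.13), and the adjusted p = 0.28 by edgeR was the smallest over the lists. By DESeq2 the adjusted p of *Lrp1* was 0.0209, but the difference was under 1.5-fold. *Vldlr*, another receptor of this family, had the smallest p in *Le-Cre* against *P0-3.9GFPCre* (-0.23, adjusted p = 0.535 by edgeR). *Eno1*, which had the most TPM of the list (742 on average), shares 25.9% of its 51-base stretches with another gene, mainly *Eno1b*.

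The list of thrombin receptors and coagulation control held 8 genes, 4 of them tested. Of *F2r*, *F2rl1*, *F2rl2* and *F2rl3*, only *F2r* passed the filter, and the others stayed at or under 0.17 TPM in every pool. *Tfpi*, the inhibitor of the tissue factor pathway, had the most TPM of the list (39.7 on average), with a log2 fold change of 0.00 in *Le-Cre* (95% interval -0.35 to 0.35) and -0.19 in *P0-3.9GFPCre* against *FVB/N*. *F3*, tissue factor, was at 0.763 ± 0.104 TPM in *FVB/N* and 0.450 ± 0.235 in *Le-Cre* (SD, n = 3 each), with a log2 fold change of -0.79 and a wide interval of -1.76 to 0.18 (adjusted p = 0.72 by edgeR). *Thbd*, thrombomodulin, overlapped between all groups.

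Of 13 matrix proteases, their inhibitors and other substrates, 11 were tested and 0 passed by edgeR. *Timp2* (37.8 TPM on average), *Timp3* (28.1) and *Serpinf1* (10.2) had the most TPM. *Timp3*, a matrix-bound metalloproteinase inhibitor, had a log2 fold change of 0.13 in *Le-Cre* against *FVB/N* (95% interval 0.00 to 0.26, adjusted p = 0.628 by edgeR). The gelatinases *Mmp2* and *Mmp9* were at 0.33 to 2.48 and 0.10 to 0.78 TPM, and their groups overlapped.

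All 10 core proteins of heparan sulfate, to which *Serpine2* protein binds, were tested. *Hspg2*, perlecan of basement membranes including the lens capsule, had the most TPM (275 on average), followed by the syndecans *Sdc2* (36.8) and *Sdc1* (27.8). In *Le-Cre* against *FVB/N*, *Hspg2* was at -0.20 (adjusted p = 0.555), *Sdc4* at -0.20 (adjusted p = 0.581) and the glypican *Gpc1* at -0.17 (adjusted p = 0.591), log2 fold changes by edgeR. Their CPM did not overlap between these groups, as for 13.5% of all tested genes, but in TPM *Hspg2* and *Gpc1* overlapped. The CPM of *Gpc3* did not overlap either, and it was higher in *Le-Cre* (log2 fold change 0.44, adjusted p = 0.714 by edgeR). *Gpc4* had the smallest p of the list in *P0-3.9GFPCre* against *FVB/N* (0.25, adjusted p = 0.763 by edgeR).

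The serpin family, taken as all symbols starting with Serpin, had 63 genes, of which 38 were at 0 in every pool and 14 besides *Serpine2* were tested. The 3 with the most TPM were *Serpinh1*, the collagen chaperone HSP47 (62.4 on average), *Serpinb6a* (10.2) and *Serpinf1* (10.2). By mean TPM, *Serpine2* ranked at place 7 of 63 in *FVB/N*, place 6 in *P0-3.9GFPCre* and place 4 in *Le-Cre*. In *Le-Cre* against *FVB/N* the 14 genes had a median log2 fold change of 0.21, beside -0.004 over all tested genes. Their values ran from -0.74 to 0.68, with 10 above 0 and 0 past the cutoff by edgeR, and no set test was run. By edgeR the unadjusted p was under 0.05 for 2 of the 14, *Serpinf1* and *Serpina3h*, beside 1236 of 15557 over all tested genes.

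The 5 genes whose pattern over the 9 pools was nearest to that of *Serpine2* were *Nab2*, *Trp53inp1*, *AI504432*, *Ephx1* and *S100a10*. Likeness was measured as the root-mean-square difference between log2 CPM values, each gene centred on its mean. This was 0.238, 0.241, 0.248, 0.249 and 0.266, against a median of 0.62 over 13040 genes with a mean of at least 1 CPM. A gene with no change over the pools would stand at 0.594. *Nab2* encodes a co-repressor of EGR factors, *Trp53inp1* a p53-inducible protein and *Ephx1* microsomal epoxide hydrolase. The 9 pools share their groups and depth with the pattern that chose these genes, so no test is given.

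*Trp53inp1* was at 5.32 to 6.11 CPM in *FVB/N*, 6.42 to 7.65 in *P0-3.9GFPCre* and 10.7 to 14.0 in *Le-Cre*. *Nab2* was at 2.13 to 3.74, 3.1 to 4.49 and 5.52 to 5.73 CPM in the same order. Like *Serpine2*, these genes were highest in *Le-Cre*, which their choice by likeness to it favours. Log2 fold changes in *Le-Cre* against *FVB/N* were 1.32 for *Serpine2* and 0.88 to 1.04 for the other 5. *Serpine2* was picked for its rise in this comparison, so its wider gap is a description.

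**Figure D4:**
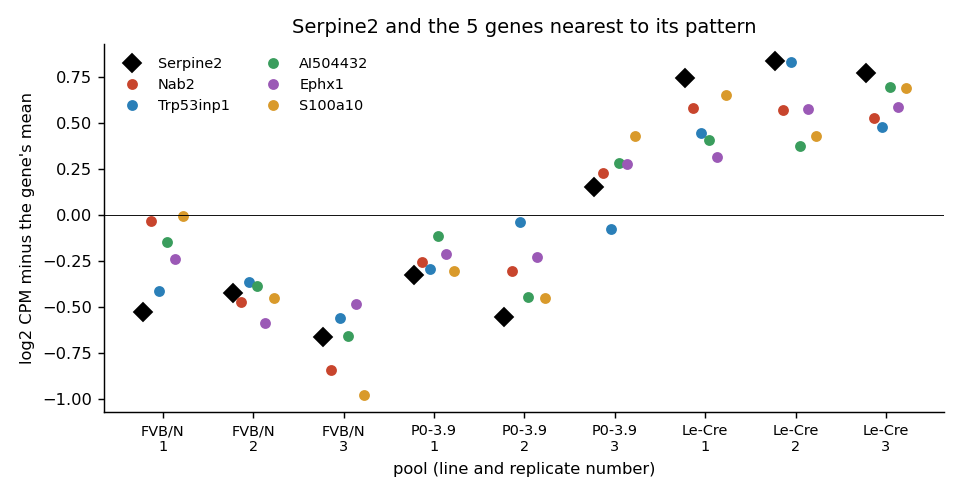
Log2 CPM minus the gene's mean over the 9 pools for *Serpine2* (black diamonds) and the 5 genes nearest to its pattern (circles), by pool; points of a pool are set side by side for clarity. In *Le-Cre* all 6 genes were above their mean in all 3 pools, and in *FVB/N* all were below it.

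The tested genes on either side of *Serpine2* on chromosome 1 did not share its difference at the cutoff. *Mrpl44*, a mitochondrial ribosomal protein gene 12752 bases away on the side of lower coordinates, had a log2 fold change of -0.12 in *Le-Cre* against *FVB/N* (95% interval -0.41 to 0.17, adjusted p = 0.878 by edgeR). *Gm37932*, 393851 bases away on the other side, had 0.50 (95% interval -0.28 to 1.28, adjusted p = 0.797 by edgeR).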

How the data were processed

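Lenses of newborn mice were pooled into 3 replicates per line, and polyadenylated RNA was sequenced as single-end reads. The authors trimmed reads with Trimmomatic 0.36, used GSNAP for mapping to GRCm38 and estimated gene levels with RSEM 1.3.0. The versions come from the submitters' processing notes. The annotation release and strand setting are not given in the sources used here. The deposited tables hold expected counts, which are not normalized, and TPM, which the authors' RSEM run scaled for length and depth. The deposited mean transcript lengths came from the same tables, and reads that fit several transcripts are split by RSEM's estimates. Coordinates are from GENCODE M21, which matched 47224 of 47729 identifiers.

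Here, expected counts were rounded to whole numbers and tested in R 4.3.3 with edgeR 4.0.16 (TMM, filterByExpr, glmQLFit and glmQLFTest, all 9 pools in 1 model of the 3 lines), with Benjamini-Hochberg adjustment over 15557 genes. A call needed 1.5-fold or more and an adjusted p no higher than 0.05. Each SE is the size of the log2 fold change over the square root of F, and 95% intervals use the t quantile at the fit's degrees of freedom. Steps were tested on simulated data. Alternatives used DESeq2 1.42.0 with and without a prior, DESeq2 size factors in edgeR, other filters, only the compared pools, a replicate block, a Y-linked covariate, limma 3.58.1 on log2(TPM + 0.1) and log2(TPM + 1), and each pool left out.

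The 6 genes and all lists were chosen with earlier results of these data known. The text names the 6 genes. From each list it names called genes, the 3 tested genes with the highest TPM and the gene with the smallest p per comparison. It also names the 5 genes most like *Serpine2*, its tested neighbours and the top 3 serpins. The values of 1 list gene are not reported here. Others were named after their values were seen. P-values measure the spread between pools, and counting limits cover counting error only.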

Additional observations from a re-analysis of the deposited data

How the results depend on the processing

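Of the 4 tested genes other than *Serpine2*, 0 were called in every alternative run except that without a filter on low counts, which called 1, *Serpinf1*, in *Le-Cre* against *FVB/N*. Of the 44 list genes, DESeq2 without a prior called 1 (*S100a10*) and the fit without a filter called 2 (*Serpinf1* and *S100a10*) there. The *Serpine2* log2 fold change in *Le-Cre* against *FVB/N* was 0.78 with DESeq2's prior, which shrinks it by construction, 1.14 with the Y-linked covariate and 1.69 with limma on log2(TPM + 0.1). Against *P0-3.9GFPCre* it was 0.60 with the prior. In CPM, the order of *Serpinf1* and *Serpine2* in *Le-Cre* was the reverse of that in TPM.

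Over all genes, *Le-Cre* against *FVB/N* gave 10 calls with edgeR, 54 with DESeq2 without a prior, 131 without a filter, 5 with a mean of at least 10 counts, 0 with the Y-linked covariate, 0 with limma at a pseudocount of 0.1, 1 at a pseudocount of 1, and 0 to 10 with 1 pool left out (0 or 1 without any single *FVB/N* or *Le-Cre* pool). *P0-3.9GFPCre* against *FVB/N* gave 0 with edgeR, 11 and 1 with DESeq2 without and with the prior, 93 without a filter and 0 to 14 with 1 pool left out (14 without *FVB/N* replicate 2). *Le-Cre* against *P0-3.9GFPCre* gave 0 with edgeR, 39 and 4 with DESeq2, 123 without a filter, 31 with only the compared pools, 1 with limma at a pseudocount of 1 and 0 to 18 with 1 pool left out (18 without *FVB/N* replicate 2). The cause was not tested.

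Signs that turned were those of small differences. *Plat* in *Le-Cre* against *FVB/N* was -0.06 with the Y-linked covariate and -0.05 to 0.22 with 1 pool left out (below 0 without *Le-Cre* replicate 1). *Plau* was 0.01 with limma on log2(TPM + 0.1) and -0.51 to 0.38 with 1 pool left out there (above 0 without *FVB/N* replicate 3 or *Le-Cre* replicate 2), -0.59 to 0.30 in *P0-3.9GFPCre* against *FVB/N* (above 0 without *FVB/N* replicate 3), and in *Le-Cre* against *P0-3.9GFPCre* -0.08 with the covariate and -0.08 to 0.23 (below 0 without *Le-Cre* replicate 1). *Tfpi* in *P0-3.9GFPCre* was -0.34 to 0.00 (highest without *FVB/N* replicate 3) and *Serpinf1* in *Le-Cre* against *P0-3.9GFPCre* -0.44 to 0.03 (above 0 without *P0-3.9GFPCre* replicate 2).

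With the replicate number as a block, 2 genes were called in *Le-Cre* against *FVB/N* and 0 in the other comparisons, and *Serpine2* was at 1.32, 0.31 and 1.01. Same-numbered pools correlated at -0.08 to 0.11 in their deviations from the group means (mean 0.032 over 9 pairs). Differently numbered pools correlated at -0.15 to 0.10 (mean -0.016 over 18 pairs). Whether same-numbered pools shared a batch cannot be decided from these overlapping ranges.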
